A study of Mus musculus with 6 samples.

Results

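The platelet-derived growth factor (PDGF) family was described here as 6 genes, the receptors Pdgfra and Pdgfrb and the ligands Pdgfa, Pdgfb, Pdgfc and Pdgfd, out of 19938 genes measured. They were chosen by name, each with 1 probe set (the probes that together report 1 transcript region), after Pdgfra had been seen to read higher in Foxd1-/-. For that reason differences between Foxd1-/- and the other genotypes are given for these genes as a description, with no test. RNA came from mouse embryonic fibroblasts, mixed fibroblast cultures grown from embryos, of the genotypes Foxd1+/+, Foxd1+/- and Foxd1-/-. Foxd1 encodes a forkhead transcription factor. All cultures, the Foxd1+/+ controls included, carried retroviruses for Oct4, Sox2 and Klf4, the factors that turn fibroblasts towards pluripotency, and RNA was collected 8 days later (day 8). Every genotype had 2 single-colour arrays, called biological replicates 1 and 2 in the labels. The sources used here do not say whether these came from separate embryos or how the Foxd1 allele was made, so errors and p-values describe the spread between these arrays.

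PDGF ligands are secreted dimers that bring receptor tyrosine kinases together in pairs, which then phosphorylate each other and start PI3-kinase, phospholipase C gamma and Ras signalling. Pdgfra responds to the A, B and C chains, and Pdgfrb mainly to the B and D chains. The A and B chains are cut to their active form inside the producing cell. The C and D chains are released as latent forms that proteases activate outside it. Pdgfra marks many embryonic mesenchymal cells, including fibroblasts, and the primitive endoderm. Pdgfrb is the receptor of pericytes and other mural cells, and in the kidney these descend from a stroma that expresses Foxd1.

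Median intensity was between 76.5 and 79.6 per array, and the lowest value on any array was 19.5. Foxd1 read 189 and 213 on the arrays labelled Foxd1-/-, against 1907 and 1169 for Foxd1+/+ and 1014 and 2074 for Foxd1+/-. In replicate 2 the array labelled Foxd1+/- thus held more Foxd1 than the one labelled Foxd1+/+, and directions below are those of the arrays as labelled. Where the probe set lies relative to the altered part of the Foxd1 allele was not analysed here. Xist, the RNA of the inactive X chromosome, read 35.2 and 33.7 on Foxd1+/+ replicate 2 and Foxd1+/- replicate 1, and between 514 and 848 on the other 4 arrays, both Foxd1-/- arrays among them. The Y-linked Uty read 274 and 244 on the former arrays and between 23.6 and 25.9 on the latter. Fibroblast genes, summed over 20 measured markers, gave between 36489 and 54839 per array. Endothelial genes, summed over 12 measured markers, gave between 1673 and 1845. Summed over 12 measured markers, macrophage genes gave between 1849 and 2186 in Foxd1-/- and between 2382 and 3133 on the other arrays.

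Pdgfra, the receptor of the A, B and C chains, was the member furthest above the other genotypes in Foxd1-/-. Its intensity was 282 and 284 on Foxd1+/+ replicates 1 and 2, 237 and 335 on Foxd1+/-, and 452 and 478 on Foxd1-/-. Both Foxd1-/- arrays were above all 4 others, and the Foxd1+/- arrays lay on either side of Foxd1+/+. Group means were 283 ± 1.39, 286 ± 68.9 and 465 ± 18.3 (SD, n = 2 each). On the scale log2(intensity + 1), used for every difference below, Foxd1-/- differed from Foxd1+/+ by 0.71 ± 0.17 (SE), which is 1.64-fold. From Foxd1+/- it differed by 0.72 ± 0.17 (SE), or 1.65-fold, on the same Foxd1-/- arrays. Taken within replicate number, the difference from Foxd1+/+ was 0.68 in replicate 1 and 0.75 in replicate 2, and that from Foxd1+/- was 0.93 and 0.51. The intensity of bulk cultures does not tell apart more cells that carry a receptor from more of its RNA per cell.

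The region before the annotated start of Pdgfra is shown because Pdgfra is the gene the comparison turns on, and because forkhead and Klf4 recognition words can be looked up in it. The windows run from 250 bases before to 30 bases after an annotated start (RefSeq, GRCm38.p6), 5′ to 3′ along the gene. Capitals mark a forkhead core word or the Klf word CACCC on either strand. A forkhead word is TGTTTAC, where A may also stand at the second base, G at the sixth and T at the seventh. The pair of Pdgfa windows is shown beside it, since Pdgfa lay on the opposite side in Foxd1-/- (below).
Pdgfra, chr5:75152001-75152280, + strand: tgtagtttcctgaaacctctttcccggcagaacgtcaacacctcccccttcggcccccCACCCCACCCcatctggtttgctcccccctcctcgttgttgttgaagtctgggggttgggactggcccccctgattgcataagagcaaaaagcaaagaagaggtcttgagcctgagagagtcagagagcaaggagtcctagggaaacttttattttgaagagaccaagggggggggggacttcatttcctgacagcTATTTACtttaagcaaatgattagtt
Pdgfa, chr5:138994252-138994531, - strand: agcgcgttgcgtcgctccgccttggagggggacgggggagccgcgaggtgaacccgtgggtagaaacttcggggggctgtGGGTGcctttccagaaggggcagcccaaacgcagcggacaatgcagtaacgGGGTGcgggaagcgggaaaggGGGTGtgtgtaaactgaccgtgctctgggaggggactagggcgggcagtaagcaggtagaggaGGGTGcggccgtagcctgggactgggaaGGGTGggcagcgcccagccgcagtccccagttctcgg
Pdgfa, chr5:138994915-138995194, - strand: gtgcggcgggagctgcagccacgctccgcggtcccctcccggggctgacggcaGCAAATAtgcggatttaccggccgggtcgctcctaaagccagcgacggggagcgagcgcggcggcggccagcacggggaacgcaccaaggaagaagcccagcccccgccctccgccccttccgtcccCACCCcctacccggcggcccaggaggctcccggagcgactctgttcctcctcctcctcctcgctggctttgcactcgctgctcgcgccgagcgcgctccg
The Pdgfra window held 1 forkhead word, TATTTAC at positions 255 to 261 counted from its first base, just past the start site. It also held the Klf word CACCC at positions 59 to 63 and again at 64 to 68. The Pdgfa window at 138994252 held the Klf word 5 times and no forkhead word. The window at 138994915 held TATTTGC on the opposite strand at positions 54 to 60 and CACCC at 181 to 185. Of all 32851 windows of this length, 26.4% held a forkhead word and 55.4% the Klf word, so that both are common. GC content was 51.4% in the Pdgfra window and 67.1% and 73.2% in those of Pdgfa. Windows were used for 4 of the 6 members (Pdgfra, Pdgfa, Pdgfc and Pdgfd). The selection of member windows left out by rule the chromosome that carries Pdgfrb. The absence of Pdgfrb here therefore does not show that it has no window. Pdgfb lies on another chromosome, and no window under its symbol was among those supplied. These are matches of letters, not binding sites.

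**Figure D1:**
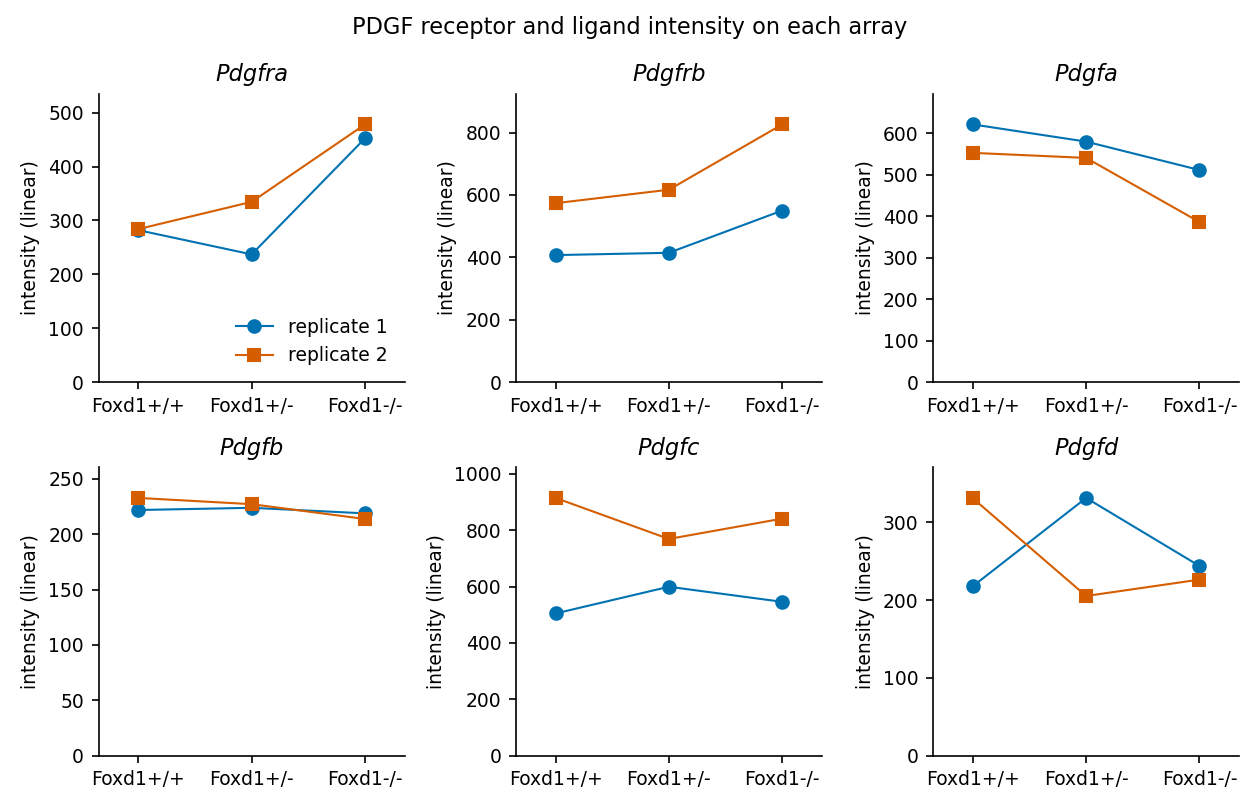
Intensity (linear axis from 0) of each PDGF gene by genotype, with blue circles for replicate 1 and orange squares for replicate 2, joined within a replicate number. Pdgfra reads 452 and 478 in Foxd1-/- against 237 to 335 elsewhere, Pdgfrb and Pdgfc are higher in replicate 2 of each genotype, and the Pdgfd lines cross.

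Pdgfrb, the receptor of the B and D chains, was also higher in Foxd1-/- by its mean and within each replicate number, with arrays that overlapped between groups. It read 407 and 574 on the Foxd1+/+ arrays, 415 and 617 on those of Foxd1+/-, and 550.1 and 826 on those of Foxd1-/-. Replicate 1 of Foxd1-/- lay below replicate 2 of both other genotypes, so the groups overlapped. Group means were 491 ± 118, 516 ± 143 and 688 ± 195 (SD, n = 2 each). Within replicate number the log2 difference from Foxd1+/+ was 0.43 and 0.53, and from Foxd1+/- 0.41 and 0.42. The means of these pairs were 0.48 and 0.41, with SEs of 0.31 each when replicate number was left out of the fit and 0.06 with it as a block. Leaving out 1 array moved the difference from Foxd1+/+ to between 0.19 and 0.77, and that from Foxd1+/- to between 0.12 and 0.71. Over the 6 arrays Pdgfra and Pdgfrb had a Pearson correlation of 0.77, to which the Foxd1-/- arrays and, for Pdgfrb, the replicate number contribute.

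Pdgfa, which encodes the A chain that binds only Pdgfra, was the member furthest below the other genotypes in Foxd1-/-. It read 621 and 553 on the Foxd1+/+ arrays, 579.8 and 540.5 on those of Foxd1+/-, and 511 and 386 on those of Foxd1-/-. Both Foxd1-/- arrays were below all 4 others, replicate 1 by a small margin. Group means were 587 ± 48.5, 560.1 ± 27.8 and 449 ± 88.6 (SD, n = 2 each). Its difference was -0.40 ± 0.15 from Foxd1+/+ and -0.33 ± 0.15 from Foxd1+/- (SE), or 1.32-fold and 1.26-fold lower. Within replicate number it was -0.28 and -0.52 against Foxd1+/+, and -0.18 and -0.48 against Foxd1+/-, so replicate 2 held most of it. Without Foxd1-/- replicate 2 the differences were -0.20 and -0.13. Over the 6 arrays its correlation with Pdgfra was -0.82, given as a description.

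Pdgfb, the B chain, which binds both receptors, hardly moved between arrays. It read 222 and 233 on the Foxd1+/+ arrays, 224 and 227 on those of Foxd1+/-, and 219 and 214 on those of Foxd1-/-, a log2 range of 0.12 over the 6 arrays. Both Foxd1-/- arrays were the lowest, by a log2 difference of -0.07 from Foxd1+/+ and -0.06 from Foxd1+/- (SE 0.05 each).

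Pdgfc and Pdgfd, the chains that need activation outside the cell, had Foxd1-/- arrays inside the range of the others. Pdgfc read 504 and 914 on the Foxd1+/+ arrays, 599 and 769 on those of Foxd1+/-, and 546 and 841 on those of Foxd1-/-. Its genotype means were within 0.01 of each other on the log2 scale (9.41 in each), while replicate 2 was the higher array in each genotype. Pdgfd read 218 and 331 on the Foxd1+/+ arrays, 331 and 205 on those of Foxd1+/-, and 244 and 226 on those of Foxd1-/-. The order of the Pdgfd arrays followed neither genotype nor replicate number.

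In all, both receptors were higher and all 4 ligands were lower in Foxd1-/- than in each of the other genotypes by the sign of the mean, although for Pdgfc the difference was below 0.01 in size. Of all 19938 genes, 9893 were higher and 10045 lower than the mean of the other genotypes. Leaving out 1 array turned the sign for Pdgfc (-0.43 to 0.42 against Foxd1+/+) and Pdgfd (-0.49 to 0.11), and for no other member. The median log2 difference from the mean of the other genotypes was 0.58 for the 2 receptors and -0.12 for the 4 ligands, where that of all genes was -6e-04. Foxd1-/- arrays did not overlap with the other 4 for 3 members, Pdgfra above and Pdgfa and Pdgfb below. In that comparison 10.8% of all genes did not overlap, 5.59% above and 5.26% below. The same 3 members did not overlap against Foxd1+/+ alone, where 25.7% of genes did not, nor against Foxd1+/- alone, where 25.6% did not; these comparisons share the Foxd1-/- arrays. Within both replicate numbers Foxd1-/- was above both other genotypes for Pdgfra and Pdgfrb and below both for Pdgfa and Pdgfb. This held for 16% of all genes above and 14.2% below. By size in either direction Pdgfra ranked 91 of 19938 genes, Pdgfrb 287 and Pdgfa 456. As Pdgfra was chosen on this contrast, these figures are a description. limma called 0% of genes in any comparison with Foxd1-/-, with unadjusted p under 0.05 for 2.11% against Foxd1+/+, 2.31% against Foxd1+/- and 2.75% against their mean. With replicate number as a block it again called 0%, with 7.54%, 7.56% and 9.21% at an unadjusted p under 0.05.

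**Figure D2:**
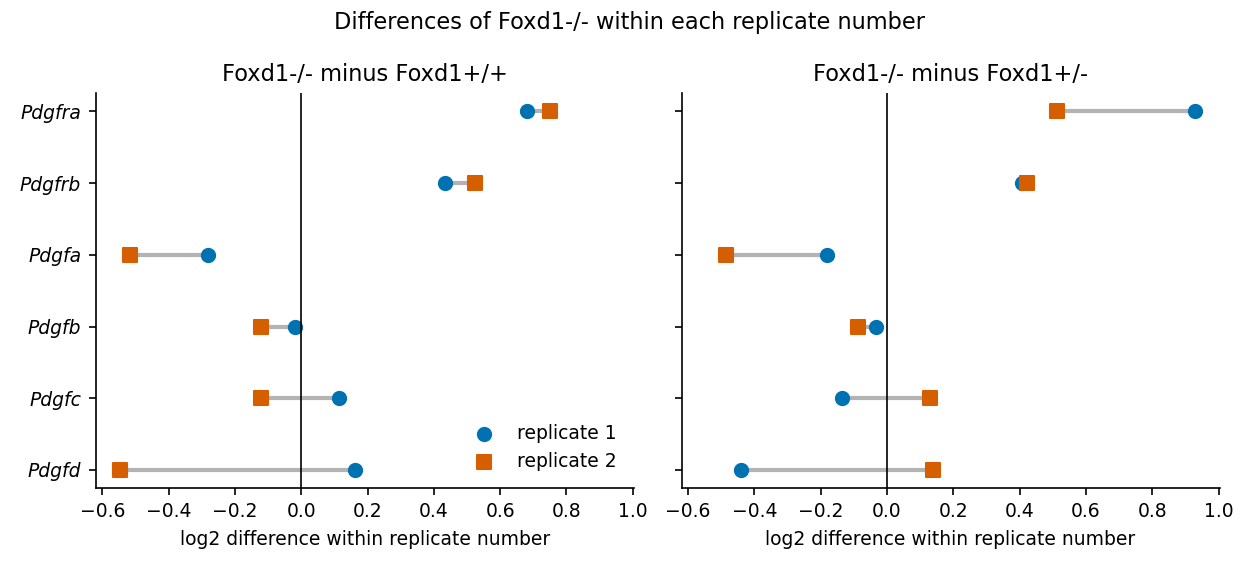
Log2 difference of Foxd1-/- from Foxd1+/+ (left) and from Foxd1+/- (right) for each PDGF gene within replicate 1 (blue circles) and replicate 2 (orange squares), with a grey bar joining both. The receptors lie above 0 in all 4 pairs, Pdgfa and Pdgfb lie below 0 in all 4, and Pdgfc and Pdgfd lie on either side.

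**Figure D3:**
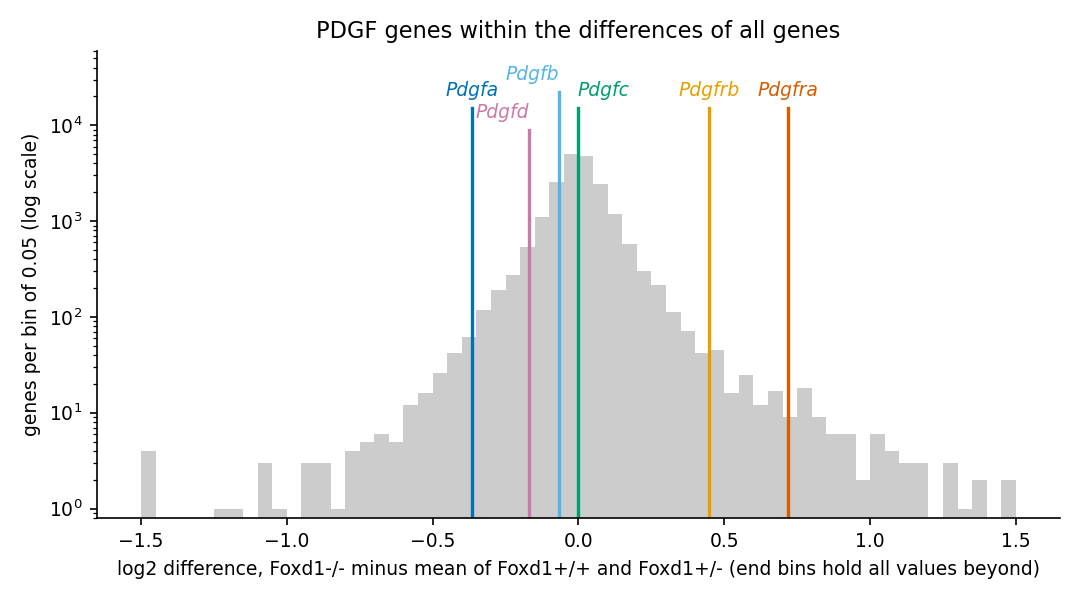
Number of genes (log axis) in bins of the log2 difference of Foxd1-/- from the mean of the other genotypes, over 19938 genes, with the PDGF genes marked by vertical lines. Pdgfra (0.72) and Pdgfrb (0.45) sit in the upper tail, Pdgfa (-0.37) in the lower, and Pdgfc near 0.

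Sex markers moved with genotype here, since both Foxd1-/- arrays were high in Xist and 1 array of each other genotype was low. Among the 4 arrays high in Xist, a choice made after the data were seen, Foxd1-/- could be set against Foxd1+/+ in replicate 1 and Foxd1+/- in replicate 2. Pdgfra was then higher in Foxd1-/- by 0.68 and 0.51, Pdgfrb by 0.43 and 0.42, and Pdgfa was at -0.28 and -0.48. Pdgfb was at -0.02 and -0.09. Pdgfd turned the other way, at 0.16 and 0.14, where it had been -0.17 ± 0.26 (SE) against the mean of the other genotypes over all 6 arrays. Pdgfc was at 0.11 and 0.13.

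The Pdgfd values separated by the sex markers. Pdgfd read 331 on each of the arrays that were low in Xist and high in Uty, Foxd1+/+ replicate 2 and Foxd1+/- replicate 1. On the other 4 arrays it read between 205 and 244. Foxd1 itself was lower on the Xist-low array of each genotype that carries it, at 1169 and 1014, than on the Xist-high array, at 1907 and 2074. The contractile genes Tagln and Cnn1 also read highest on those 2 arrays, at 662 and 761 for Tagln against 338 to 401 on the others, and at 110.2 and 146 for Cnn1 against 60.0 to 75.4. Xist, Uty, Tagln and Cnn1 were set beside Pdgfd after their values had been seen, and their part in the Pdgfd values was not tested.

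**Figure D4:**
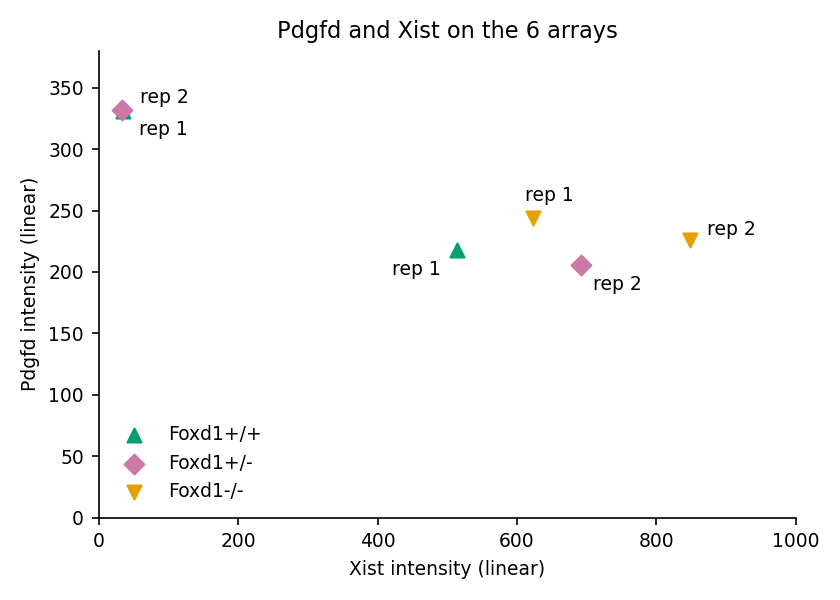
Intensity of Pdgfd (vertical) against that of Xist (horizontal), both on linear axes from 0, for the 6 arrays, with the symbol giving the genotype and the text the replicate number. The 2 arrays at 331 for Pdgfd are those at 35.2 and 33.7 for Xist, and the other 4 lie between 205 and 244.

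Foxd1+/- against Foxd1+/+ is a difference that does not use the Foxd1-/- arrays, and it was tested. The test is not fully independent of how the members were chosen. Its SE pools the spread of all 6 arrays, and Pdgfra was chosen by a contrast that holds these genotypes too. None of the 6 members passed, and limma called 0% of all genes, with 0.973% at an unadjusted p under 0.05, or 2.01% with replicate number as a block. Pdgfra differed by -0.01 with a 95% interval from -0.45 to 0.44 (limma adjusted p = 0.999994, n = 2 arrays per genotype). The interval was -0.75 to 0.88 for Pdgfrb, -0.47 to 0.33 for Pdgfa and -0.15 to 0.13 for Pdgfb. It was -0.96 to 0.95 for Pdgfc and -0.83 to 0.75 for Pdgfd. A rise of 0.72, the size seen for Pdgfra in Foxd1-/-, lies outside the intervals of Pdgfra, Pdgfa and Pdgfb and inside those of Pdgfrb, Pdgfc and Pdgfd. With replicate number as a block the interval was -0.08 to 0.21 for Pdgfrb and -0.33 to 0.32 for Pdgfc, which leave that rise outside, and -0.82 to 0.73 for Pdgfd, which does not. The arrays overlapped for all 6 members, where 20.4% of all genes did not overlap. For Pdgfd the difference within replicate number was 0.60 in replicate 1 and -0.69 in replicate 2, along with the sex markers, and for Pdgfra it was -0.25 and 0.24.

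Replicate 2 against replicate 1, fitted with genotype as a term, asked how far same-numbered cultures share a level. Pdgfrb was higher in replicate 2 in 3 of 3 genotypes, by 0.49 in Foxd1+/+, 0.57 in Foxd1+/- and 0.59 in Foxd1-/-. The mean was 0.55 ± 0.05 (SE), 1.46-fold, with a limma adjusted p = 0.0087. Pdgfc was higher in 3 of 3 as well, by 0.86, 0.36 and 0.62, with a mean of 0.61 ± 0.10 (SE), 1.53-fold, and a limma adjusted p = 0.034. limma called 8.84% of all genes, 4.84% higher and 4% lower, so that 2 of 6 members stand beside a sizeable share of all genes. At an unadjusted p under 0.05 that share was 25.5%, and 31% of genes did not overlap between the replicate numbers. Pdgfa was lower in 3 of 3 by a mean of -0.22 ± 0.07 (SE) and did not pass (limma adjusted p = 0.14). Pdgfra (0.20 ± 0.11), Pdgfb (0.02 ± 0.05) and Pdgfd (-0.06 ± 0.24; SE) did not pass either, at limma adjusted p values of 0.35, 0.88 and 0.93. The Pdgfra mean rested on Foxd1+/-, at 0.50 against 0.01 in Foxd1+/+ and 0.08 in Foxd1-/-.

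Leaving out 1 array takes its whole genotype out of this contrast, since the remaining array of that genotype has no partner. The mean then ranged from 0.53 to 0.58 for Pdgfrb and from 0.49 to 0.74 for Pdgfc. The calls were not kept in every such fit, which has fewer arrays and genotypes behind it, so they do not show the weight of a single array. Fibroblast markers moved with replicate number too, with 19 of 20 measured genes higher in replicate 2, a median of 0.37, and 10 called higher by limma. Pluripotency markers were lower in 12 of 12, with a median of -0.80 and 5 called lower. The part of either in the receptor and ligand values was not tested.

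**Figure D5:**
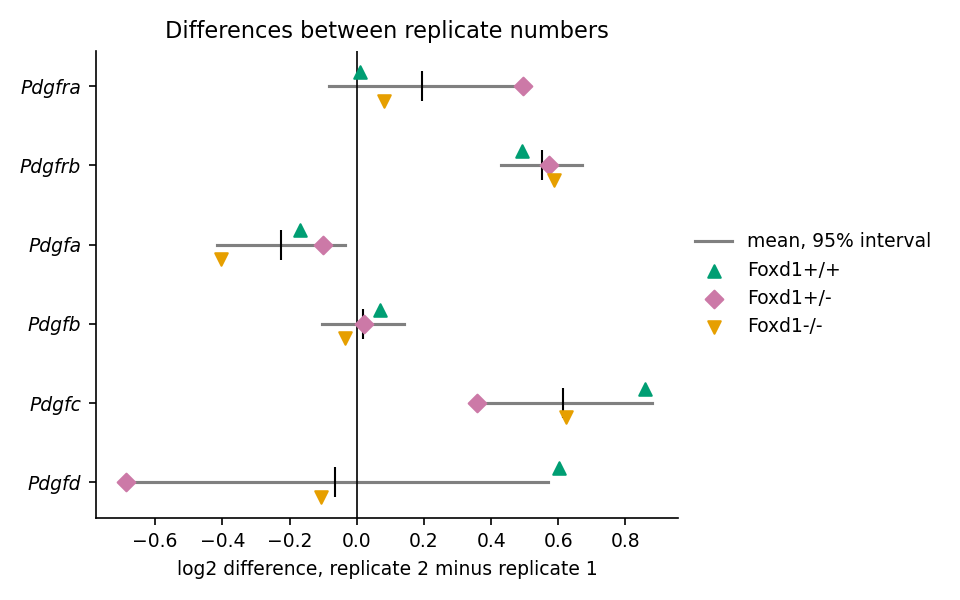
Log2 difference of replicate 2 from replicate 1 for each PDGF gene, with 1 symbol per genotype, a black tick for the mean and a grey bar for its 95% interval from limma. Pdgfrb and Pdgfc lie above 0 in all 3 genotypes, while Pdgfd lies at 0.60 in Foxd1+/+ and -0.69 in Foxd1+/-.

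The profile of Pdgfra over the 6 arrays was set against 2887 genes whose log2 range was at least 0.5. Airn, a noncoding RNA transcribed antisense to Igf2r, came nearest by both measures, with a Pearson correlation of 0.99 and a mean absolute distance of 0.05. Airn read 100.1 and 108 on the Foxd1+/+ arrays, 87.0 and 119 on those of Foxd1+/-, and 169 and 193 on those of Foxd1-/-, the same order of arrays as Pdgfra. Next by correlation were Arsi (0.96), Chdh (0.95), the mesenchymal transcription factor Tbx15 (0.95) and the chemokine Ccl11 (0.95). By distance Spag17, the tetraspanin Cd82, the Kit ligand Kitl and the interleukin receptor chain Il15ra followed, at 0.10 to 0.12. The most opposite profiles were those of the axon guidance cue Sema3e (-0.98), Tmem267 (-0.97), the macrophage genes Stab1 (-0.96) and Clec4d (-0.96), and Ica1 (-0.95). With 6 arrays and a pair of them apart from the rest, such correlations are a description of likeness.

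The genes next to Pdgfra in the RefSeq gene table (GRCm38.p6, used for order alone) include the related receptor genes Kit and Kdr. Kit, the stem cell factor receptor, read 149 and 155 on the Foxd1+/+ arrays, 135 and 159 on those of Foxd1+/-, and 156 and 267 on those of Foxd1-/-. Its difference of 0.45 from the mean of the other genotypes thus came from 1 array, Foxd1-/- replicate 2. Kdr, a receptor for vascular endothelial growth factor, lay the other way, at 38.9 and 39.1 in Foxd1-/- against 44.2 to 51.0 elsewhere. On the other side Chic2 (0.02), Gsx2 (-0.05) and Gm6116 (0.04) differed little, as did Srd5a3 beyond Kdr (0.06). The first quartile of intensity was between 31.6 and 32.5 per array. Gm6116 read below it, at 24.5 to 26.5, and Gsx2 close to it, at 31.1 to 38.6, so their small differences say little. Kdr read below the array medians of 76.5 to 79.6.

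Relatives of the PDGF receptors and their ligands, a list of 15 genes, had 9 genes higher and 6 lower in Foxd1-/- than in the mean of the other genotypes. The median log2 difference was 0.06, with -0.03 when Foxd1-/- replicate 2 was left out and 0.02 when Foxd1+/- replicate 1 was. Kitl, the ligand of Kit, read 315 and 431 in Foxd1-/- against 212 to 281 elsewhere, with a difference of 0.58 and no overlap. Flt3l (0.45) and Vegfa (0.29) overlapped between groups, and Flt3l owed its value to 1 array, at 246 in Foxd1-/- replicate 2. None passed in limma in the comparisons of genotypes. Between replicate numbers limma called 3 genes of the list higher in replicate 2, Kitl (0.37) and Vegfa (0.34) among them, and 0 lower.

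Genes that process PDGF chains or limit their receptors were higher in 11 of 16 (median 0.03, and between 0.01 and 0.09 with 1 array left out). Cblb, a ubiquitin ligase that sends receptors to degradation, read 279 and 335 in Foxd1-/- against 235 to 263 elsewhere (0.29). Plau, a protease that activates the D chain, read 175 and 156 in Foxd1-/- against 152 to 244 elsewhere (-0.27), with overlap. St14 (-0.20), another activator of the D chain, and the scavenger receptor Lrp1 (0.18) overlapped too, and differed by replicate number instead, St14 by -0.71 and Lrp1 by 0.57 (limma adjusted p = 0.0081 and 0.010, in that order).

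Of 30 measured genes of PDGF signal transduction 22 were higher and 8 lower (median 0.05, and between 0.04 and 0.08 with 1 array left out). The transcription factor Stat3 read 1788 and 1894 in Foxd1-/- against 1454 to 1629 elsewhere (0.26), and the kinase Abl1 read 519 and 575 against 473 to 491 (0.18), both without overlap. The PI3-kinase subunit Pik3r1 (0.35) and Stat5b (0.21) overlapped. By replicate number Stat5b was higher in replicate 2 by 0.32 (limma adjusted p = 0.030), and Pik3r1, at 0.37, did not pass (limma adjusted p = 0.054). Early genes that growth factors induce were higher in 18 of 28 (median 0.08). That median was -0.01 without Foxd1-/- replicate 2, 0.03 without Foxd1+/+ replicate 2 and 0.04 without Foxd1+/- replicate 2. Egr2 (0.64), Ccl2 (0.43) and Egr1 (0.37) were highest in Foxd1-/- replicate 2 and overlapped otherwise, and the feedback inhibitor Spry4 was at -0.38, also with overlap. These genes differed by replicate number too. Ccl2 (0.70) and Egr1 (0.68) were higher in replicate 2 and Spry4 (-0.42) lower, at limma adjusted p values of 0.048, 0.031 and 0.015. Egr2, at 0.85, did not pass (limma adjusted p = 0.084).

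Other growth factor receptors of fibroblasts were higher in 14 of 23 (median 0.08). Without Foxd1-/- replicate 2 the median was -0.03, without Foxd1-/- replicate 1 it was 0.16, and without Foxd1+/+ replicate 1 it was 0.03. Tgfbr3, a coreceptor for TGF-beta, read 329 and 391 in Foxd1-/- against 222 to 280.3 elsewhere (0.49). Tgfbr2 (0.30) was also above the other genotypes without overlap, and Epha2 (-0.48) was below, at 162 and 136 against 201 to 215. Mertk (0.41) overlapped. None of these pathway genes passed in limma against either genotype, where 0% of all genes did. Foxd1-/- arrays lay above all others for 3 and below for 3 of the 15 relatives, and for 2 and 0 of the 16 processing and regulator genes. These counts were 3 and 1 of 30 for signal transduction, 2 and 1 of 28 for early genes and 3 and 1 of 23 for other receptors. Of all genes 5.59% lay above and 5.26% below.

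Markers of cell types stood beside these values as follows, for Foxd1-/- against the mean of the other genotypes. Fibroblast markers were higher in 18 of 20 genes, by a median of 0.23, with Dpt at 0.77 and Lum at 0.59. Their summed intensity was 43638 and 54839 in Foxd1-/-, and 36489 and 37519 in replicate 1 and 47210 and 47042 in replicate 2 of the other genotypes. The median rested largely on 1 array, at 0.06 when Foxd1-/- replicate 2 was left out and 0.39 when replicate 1 was. Macrophage markers were lower in 11 of 12 (median -0.24), with Lyz2 at -0.67 and Laptm5 at -0.52, and pluripotency markers in 11 of 12 (median -0.10), with Nr0b1 at -1.74 and Fgf4 at -0.45. The macrophage median stayed between -0.29 and -0.15 with 1 array left out. The pluripotency median turned positive, to 0.13, when Foxd1-/- replicate 2 was left out, and to 0.04 when Foxd1+/+ replicate 1 was. It was -0.60 without Foxd1-/- replicate 1, -0.50 without Foxd1+/+ replicate 2, -0.26 without Foxd1+/- replicate 2 and -0.04 without Foxd1+/- replicate 1. Mural and smooth muscle markers, the cell type in which Pdgfrb is best known, were lower in 9 of 13 (median -0.11, and between -0.20 and -0.04 with 1 array left out). Among the arrays high in Xist alone that median turned to 0.02. Primitive endoderm markers, of another Pdgfra-positive cell type, were lower in 8 of 12 (median -0.03), with Cubn at -0.42 and Dab2 at 0.26. Between replicate numbers limma called Dpt (0.77), Lum (0.70) and Dab2 (0.87) higher in replicate 2 and Laptm5 (-0.65) lower. It did not call Lyz2, Nr0b1, Fgf4 or Cubn there. Median differences were -0.02 for endothelium, -0.06 for megakaryocytes, -0.08 for glia, -0.03 for paraxial mesoderm and -0.07 for epithelium. With 1 array left out the median turned above 0 for endothelium (up to 0.01), megakaryocytes (up to 0.0054), paraxial mesoderm (up to 0.02) and primitive endoderm (up to 0.0012). Array intensity has no true 0, so absence of a marker could not be read from it, and the part of such cells in the Pdgf values was not tested.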

How the data were processed

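RNA from mouse embryonic fibroblasts of 3 Foxd1 genotypes was hybridised to 6 Affymetrix arrays of 1 colour, with 2 arrays for each genotype. The values used are linear intensities per probe set, as deposited by the authors; no label or header states their normalization. The PDGF members and all gene lists were chosen with earlier results of these data known. Of 28856 probe sets, 21789 had 1 gene symbol in the platform annotation, 1621 several and 5446 none; the last 2 classes were left out. For the 999 genes with more than 1 probe set, the brightest on average stood for the gene, giving 19938 genes. Intensity plus 1 was put on a log2 scale and fitted with limma 3.58.1 (R 4.3.3), all 6 arrays together, without a block. P-values were adjusted by Benjamini-Hochberg over all genes, and the threshold was 0.05. The script was tested on simulated data with log2 changes of 2, noise of SD 0.1 and no shift by replicate number. Those changes were larger than that of any member, so the test does not show that changes of the members' size would be called. Genes named are the members, the list genes furthest from 0 for Foxd1-/- against the mean of the others, the 5 nearest profiles by each measure and the neighbours of Pdgfra. Arrays give no count depth, and their number limits the precision. Same-numbered arrays deviated together, with correlations of deviations of 0.55, 0.73 and 0.73 over genes; this pairing comes from the data, and no label states what the numbers stand for. Alternatives were other pseudocounts, quantile normalization, a filter on dim genes, the mean over a gene's probe sets, a variance trend, only the genotypes compared, a replicate block and leaving out each array.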

Additional observations from a re-analysis of the deposited data

How the results depend on the processing

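No comparison of genotypes gave a gene called by limma under any setting run. Directions for Pdgfra, Pdgfrb, Pdgfa and Pdgfb in Foxd1-/- were kept under every setting run, including each array left out. For Foxd1+/- against Foxd1+/+ the direction had no stability. With quantile normalization it was 0.015 for Pdgfra, 0.0078 for Pdgfb and 0.0092 for Pdgfc. With 1 array left out it ranged from -0.25 to 0.24 for Pdgfra, -0.22 to 0.35 for Pdgfrb, -0.15 to 0.018 for Pdgfa, -0.046 to 0.023 for Pdgfb, -0.43 to 0.43 for Pdgfc and -0.39 to 0.30 for Pdgfd. Between replicate numbers, Pdgfb was at -0.0057 with quantile normalization, and with 1 array left out it ranged from -0.0064 to 0.045, Pdgfd from -0.40 to 0.25, Pdgfrb from 0.53 to 0.58 and Pdgfc from 0.49 to 0.74. The count of genes called there ranged from 0 to 1387 with 1 array left out, and from 1547 to 2085 under the other settings. In the comparisons of genotypes, an array left out leaves its genotype with 1 array, assumed to vary like the others. Between replicate numbers, it takes the pair of that genotype out of the contrast. With the replicate number as a block, the SE of the Pdgfra difference from Foxd1+/+ was 0.13, and no call changed.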
